A study of Mus musculus with 8 samples.

Results

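The genes that build and sulfate glycosaminoglycan chains were compared between Anp32a knockout and wild-type mice. The members are 40 genes chosen by their function, with earlier results of these data known. They make the linker that joins a chain to its protein, extend chondroitin and heparan sulfate chains, modify them, and supply the sugars and the sulfate. A probe set belonged to a member when the symbol in the deposited table equalled it, which gave 80 of 45037 probe sets and 39 of the 40 genes. No probe set in the table carries the symbol of Xylt1, which was not analysed here. Where a gene has several probe sets, the one with the highest mean stands for it, and the 39 are part of 20667 genes so summarised. The tissue was the tibial plateau of the knee, articular cartilage taken in 1 piece with the subchondral bone, from mice aged 8 weeks. One group was 4 wild-type mice of strain C57BL/6 and the other 4 mice labelled ANP32A KO, for which the labels name no strain, so a difference in strain background cannot be told apart from the knockout. Anp32a encodes a nuclear phosphoprotein, and the labels name no promoter or Cre, so they leave unsaid whether every cell of the piece lost it. Each mouse was measured on 1 Affymetrix array, and all values are log2 RMA values (background-corrected, quantile-normalised and summarised per probe set). Means carry ± SD with n = 4 per group, and differences are knockout minus wild type.

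Glycosaminoglycans are long sugar chains carried by proteoglycans such as aggrecan, whose sulfated chondroitin chains hold the water that lets cartilage bear load. A chain starts on a serine with a linker of xylose, galactose and glucuronic acid, after which the first hexosamine added commits it to chondroitin or to heparan sulfate. Sulfotransferases in the Golgi then place sulfate from the activated donor PAPS, so chondrocytes need much sulfate uptake and PAPS synthesis, and inherited loss of several of these genes disturbs skeletal growth.

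The arrays carried the tissue and the genotype named in the labels. All 13 measured markers of chondrocytes were called present on all 8 arrays, as were the 13 markers of skeletal muscle, so the piece held other tissue too. Of the 3 probe sets of Anp32a, 1 read 9.88 ± 0.08 in wild type and 4.60 ± 0.49 in knockout, where it was absent on 4 of 4 arrays. The other 2 stayed present and also read lower without overlap, by log2 differences of -0.45 and -0.51 (limma adjusted p = 0.0641 and 0.0555). Over all genes, 11 of 20667 passed limma with Benjamini-Hochberg adjustment at 0.05. The share of probe sets called present ran from 57.6% to 60.1% between arrays.

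No member passed the test. The count was 0 of 39 genes by limma with Benjamini-Hochberg adjustment, where the share over all genes was 0.0532% (0.0290% higher and 0.0242% lower), and 2 of 39 (5.13%) had an unadjusted p under 0.05, where the share was 19.4%. These were Ust and Ugp2, and they were also the members whose groups did not overlap, 2 of 39 against 10.0% of all genes. Ust lay above, as did 4.61% of all genes, and Ugp2 below, as did 5.42%. The smallest adjusted p among the members was 0.16. Of the 39, 28 read higher and 11 lower in the knockout, a share of 71.8% higher beside 53.8% of all genes, and their median log2 difference was 0.06 beside 0.01 over all genes. The 95% interval of the difference lay within 1.5-fold in either direction for 34 of the 39 members (87.2%), as for 87.1% of all genes. The exceptions were Ugp2, Hs6st2, Chsy3, Chst13 and Slc26a2. Changes smaller than 1.5-fold lie inside most of these intervals. Xylt2 and Chst3, absent on all arrays, are counted among the members that read higher.

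**Figure D1:**
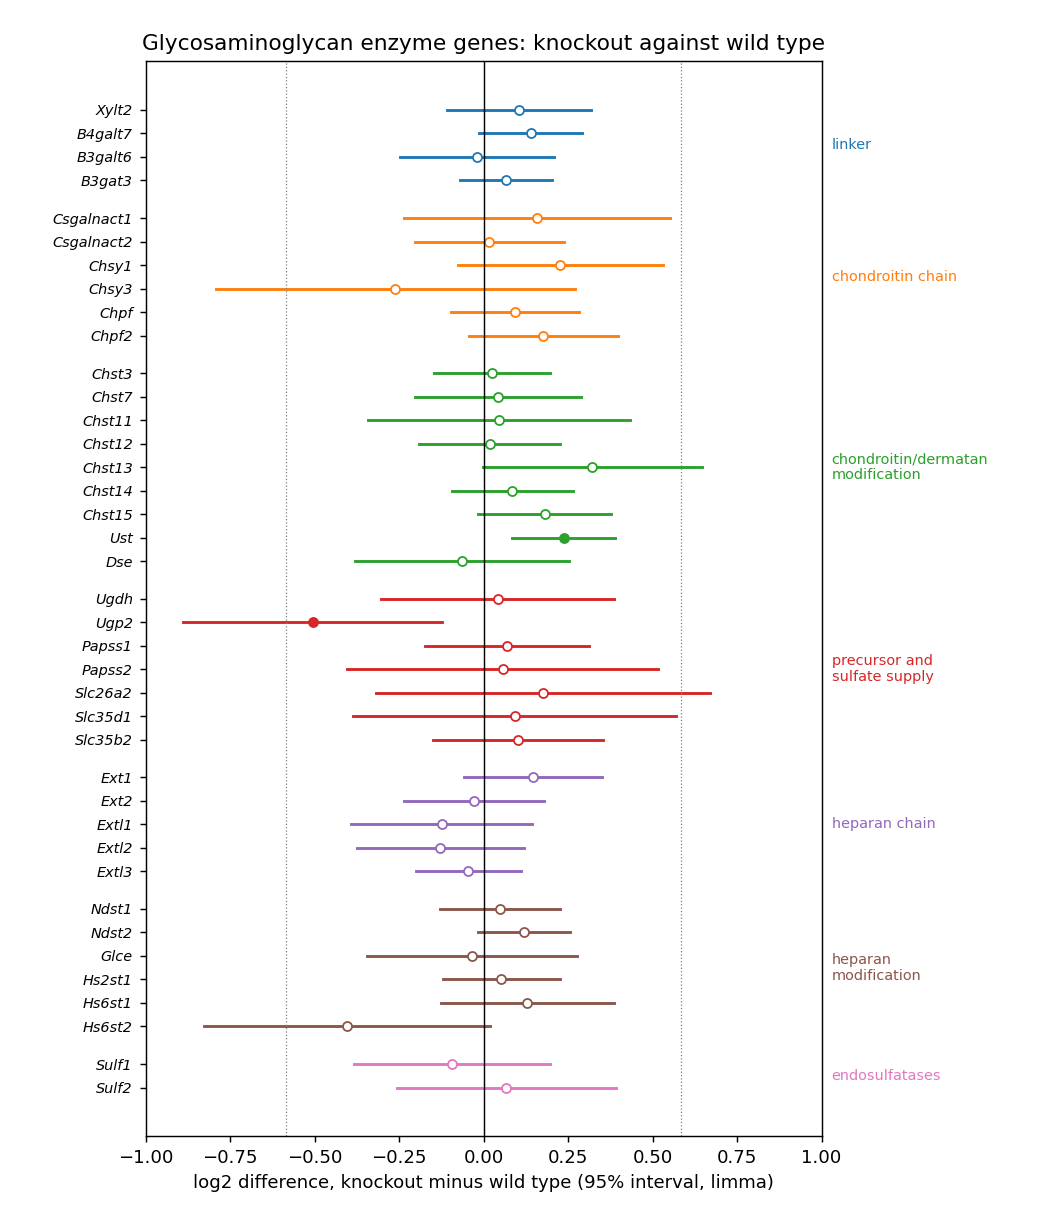
The log2 difference (knockout minus wild type, horizontal axis) of the 39 members, 1 per line, grouped and coloured by their place in the pathway, with the 95% interval from limma; filled points mark genes whose groups did not overlap, and dotted lines mark 1.5-fold. The filled points are Ust at 0.24 and Ugp2 at -0.51, and the intervals of all members other than these reach 0.

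The genes that supply sugars and sulfate held the member with the largest difference. Ugp2 makes UDP-glucose, which is used both for these chains and for glycogen. It read 12.97, 12.86, 13.03 and 13.14 in wild types 1 to 4 and 12.85, 12.08, 12.25 and 12.80 in knockouts 1 to 4. Every knockout array lay below every wild type, knockout 1 by a hair and knockouts 2 and 3 by far. The means were 13.00 ± 0.11 and 12.49 ± 0.39, a 1.42-fold lower level in the knockout (log2 difference -0.51, 95% interval -0.89 to -0.12, limma adjusted p = 0.179). All 5 probe sets of Ugp2 read lower, by log2 differences of -0.51 to -0.72, and the groups parted without overlap in 2 of them. With knockout 2 and 3 left out together the difference was -0.18 (limma adjusted p = 0.736).

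Ugp2 moved with muscle genes across the mice. The mean of the 13 muscle markers, relative to all arrays, lay at 0.18 to 0.44 in wild type and at 0.07, -1.07, -0.52 and 0.23 in knockouts 1 to 4. Over the 8 mice the Ugp2 level followed this mean with r = 0.97 (exact permutation p = 0.000273, adjusted 0.00709 over 78 relations; Spearman rho = 0.93, exact permutation p = 0.00223, adjusted 0.0435). Without knockout 2 and 3, the mice farthest from the median, r was 0.86 over 6. Each genotype holds 4 mice, too few for an r of its own, and deviations from the genotype means gave r = 0.96. Of the 39 members 3 passed with the muscle mean by r, Ugp2 with a positive sign and 2 with a negative one. These 2 were Ext1 (r = -0.92, exact permutation adjusted p = 0.0268) and Chsy1 (r = -0.88, exact permutation adjusted p = 0.0308). Their rho did not pass (exact permutation adjusted p = 0.189 and 0.298). Without knockout 2 and 3, r was -0.50 for Ext1 and -0.38 for Chsy1, so these rest in part on those mice. With the muscle mean as a covariate, which was added with the data in view, the Ugp2 difference was -0.095 (limma adjusted p = 0.807). In such bulk tissue fewer cells of a type and less RNA per cell cannot be told apart, and what part muscle has in the Ugp2 difference was not tested beyond this fit.

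None of the remaining 6 supply genes passed, and Slc26a2, Papss2 and Slc35d1 varied more between mice of 1 genotype than most members. Slc26a2, the sulfate transporter whose loss causes chondrodysplasia in people, read 11.15, 11.65, 11.01 and 11.13 in wild type and 11.20, 12.07, 11.04 and 11.34 in knockout. Papss2, which makes PAPS and is the form known for its role in cartilage, read 12.57, 13.04, 12.48 and 12.55 against 12.57, 13.27, 12.26 and 12.76. Slc35d1, which carries UDP-sugars into the endoplasmic reticulum, read 9.33, 9.95, 9.31 and 9.39 against 9.45, 10.13, 9.15 and 9.62. In each of these genes wild type 2 was the highest wild type and knockout 2 the highest knockout, and knockout 3 was the lowest knockout. The genotype differences were 0.18 for Slc26a2 (95% interval -0.32 to 0.67), 0.06 for Papss2 (-0.40 to 0.52) and 0.09 for Slc35d1 (-0.39 to 0.57), with limma adjusted p = 0.72, 0.917 and 0.861. Ugdh, which oxidises UDP-glucose to UDP-glucuronic acid, differed by 0.04, the second PAPS synthase gene Papss1 by 0.07, and Slc35b2, which brings PAPS into the Golgi, by 0.10 (limma adjusted p = 0.918, 0.78 and 0.679). The SD within a genotype was 0.38 for Slc26a2, 0.36 for Slc35d1, 0.35 for Papss2 and 0.26 for Ugdh, and it was 0.17 for Papss1 and 0.18 for Slc35b2, beside a median of 0.17 over all 39 members and 0.13 over all genes.

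Of the 7 supply genes, 4 followed the chondrocyte markers from mouse to mouse, as did the chondroitin genes Chst11 and Csgalnact1 and the heparan sulfate gene Glce. The mean of the 13 chondrocyte markers, relative to all arrays, was -0.19, 0.20, -0.11 and -0.09 in wild type and -0.07, 0.39, -0.18 and 0.05 in knockout. Wild type 2 and knockout 2 were the highest of their groups here too, and the genotypes overlapped. Of the 39 members, 31 had a positive r with this mean and 7 passed by an exact permutation test. Adjustment ran over the 78 relations (39 members, each with the chondrocyte and the muscle mean). Correlations with either mean were not run over all genes, so no share over all genes can be set beside these counts. For Slc35d1 r was 0.98 (exact permutation p = 0.000198, adjusted 0.00709; rho = 0.93, exact permutation p = 0.00223, adjusted 0.0435). For Chst11 r was 0.96 (exact permutation p = 0.000149, adjusted 0.00709; rho = 0.95, exact permutation p = 0.00114, adjusted 0.0435). Csgalnact1 gave r = 0.96 and rho = 0.93 (exact permutation p = 0.000397 and 0.00223, adjusted 0.00774 and 0.0435). These 3 passed by both measures. Slc26a2 had r = 0.97 and Papss2 r = 0.97 with rho = 0.83 and 0.86, and their rho did not pass (exact permutation adjusted p = 0.171 and 0.167). Ugdh (r = 0.94) and Glce (r = 0.87) passed by r only (exact permutation adjusted p = 0.0232 and 0.0286). The supply genes Papss1 and Slc35b2 did not pass (r = 0.82 and 0.85, exact permutation adjusted p = 0.0694 and 0.0748), and Ugp2 had r = -0.47.

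In the other 6 mice r was at least 0.7, the cut used here, for 5 of the 7 genes, and r over 6 mice was not tested. Without wild type 2 and knockout 2, the 2 mice farthest from the median, r was 0.98 for Csgalnact1, 0.96 for Chst11, 0.92 for Slc35d1, 0.80 for Papss2 and 0.79 for Slc26a2. It was 0.59 for Ugdh and 0.60 for Glce, so these rest in part on those mice. Deviations from the genotype means gave r of 0.96 to 0.99 for the 5 genes. The markers and the members were read on the same arrays from the same RNA, and the part of tissue makeup in these relations was not tested. With the chondrocyte mean as a covariate, also added with the data in view, the genotype differences were -0.09 for Papss2, 0.02 for Slc26a2, -0.06 for Slc35d1, -0.08 for Chst11 and 0.04 for Csgalnact1, with limma adjusted p = 0.515 to 0.928.

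**Figure D2:**
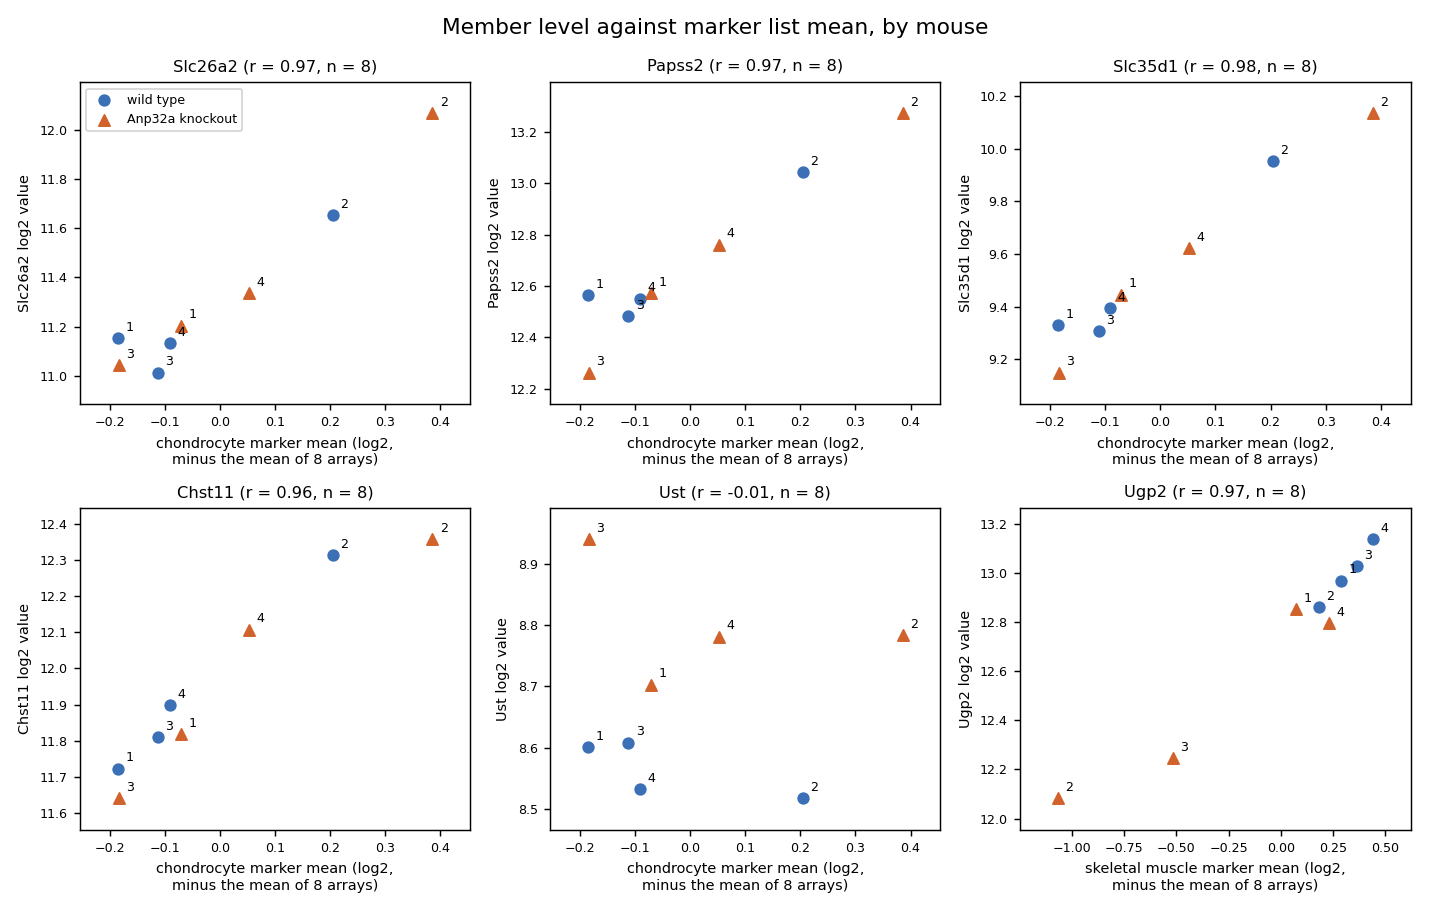
Log2 level of 6 members (vertical axes) in each of the 8 mice against the mean of a marker list relative to all arrays (horizontal axes, log2), with circles for wild type, triangles for Anp32a knockout and the mouse number beside each point. Slc26a2, Papss2, Slc35d1 and Chst11 climb with the chondrocyte markers in both genotypes, Ust does not (r = -0.01), and Ugp2 climbs with the muscle markers.

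Since Papss2, Slc35d1 and Chst11 varied together, the 250 bases before their annotated start are shown, with those of Ugp2, which varied with muscle genes, for contrast. The sequences are from RefSeq on GRCm38.p6, read 5′ to 3′ on the strand of the gene, and capitals mark the GC box GGGCGG on either strand, a motif of many broadly used promoters. Papss2 and Ugp2 each have 2 annotated starts, of which the first listed is shown.
Papss2, chr19:32595465-32595714, plus strand: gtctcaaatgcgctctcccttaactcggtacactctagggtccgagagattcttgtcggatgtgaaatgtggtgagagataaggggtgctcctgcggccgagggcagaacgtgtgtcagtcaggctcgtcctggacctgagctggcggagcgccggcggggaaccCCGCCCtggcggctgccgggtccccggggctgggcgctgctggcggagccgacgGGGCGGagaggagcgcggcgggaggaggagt
Slc35d1, chr4:103215177-103215426, minus strand: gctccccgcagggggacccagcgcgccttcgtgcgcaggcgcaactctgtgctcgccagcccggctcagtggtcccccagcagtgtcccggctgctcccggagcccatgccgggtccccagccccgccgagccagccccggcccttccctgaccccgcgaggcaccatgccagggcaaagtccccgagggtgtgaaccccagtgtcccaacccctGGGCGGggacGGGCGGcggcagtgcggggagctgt
Chst11, chr10:82985247-82985496, plus strand: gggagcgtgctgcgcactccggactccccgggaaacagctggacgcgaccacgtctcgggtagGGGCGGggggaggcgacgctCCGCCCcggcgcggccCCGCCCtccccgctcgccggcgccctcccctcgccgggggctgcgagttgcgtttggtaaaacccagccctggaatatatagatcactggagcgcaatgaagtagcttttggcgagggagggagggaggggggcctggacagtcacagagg
Ugp2, chr11:21371268-21371517, minus strand: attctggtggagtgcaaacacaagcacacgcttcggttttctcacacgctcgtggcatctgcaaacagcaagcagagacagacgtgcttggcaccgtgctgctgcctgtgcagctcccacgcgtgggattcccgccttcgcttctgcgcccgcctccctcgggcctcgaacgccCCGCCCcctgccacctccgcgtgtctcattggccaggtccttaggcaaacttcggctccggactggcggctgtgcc
The printed stretch holds 2 GC boxes in Papss2, 2 in Slc35d1, 3 in Chst11 and 1 in Ugp2. Of 32 members with a sequence, 24 hold a GC box before at least 1 annotated start. Counted over sequences, that is 26 of 41 (63.4%), beside 32.7% of all 32851 sequences of this length in the table. The SOX core motifs ACAATG and ACAAAG, searched on both strands because SOX9 is the main regulator of chondrocyte genes, are in none of the printed stretches. Each is in 1 of the 41 member sequences (2.44%), in Xylt2 and Chst3 respectively, beside 10.7% and 16.5% of all. The TATA box letters TATAAA are in 2 of the 41 (Hs6st2 and Sulf2), beside 12.4% of all. The absence of a motif says only that its letters are not in these bases.

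No linker gene passed the test. B4galt7 adds the first galactose, and its arrays read 7.56, 7.66, 7.59 and 7.64 in wild type and 7.61, 7.86, 7.77 and 7.77 in knockout. Of the 4 knockout arrays, 3 lay above all wild types and knockout 1 lay among them. The difference was 0.14 (limma adjusted p = 0.293), and the other probe set of B4galt7 read -0.06 (limma adjusted p = 0.833). B3galt6, which adds the second galactose, differed by -0.02, and B3gat3, which adds the glucuronic acid that ends the linker, by 0.07 (limma adjusted p = 0.944 and 0.602). The xylosyltransferase gene Xylt2, which starts the chain, was called absent on all 8 arrays, so its values (6.26 ± 0.16 and 6.36 ± 0.11) bound its level and give no fold.

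Genes that extend chondroitin chains read higher in the knockout in 5 of 6 cases without passing. Chpf2, a chondroitin polymerising factor, had the smallest p of this group, with 8.56, 8.85, 8.81 and 8.62 in wild type and 8.70, 9.08, 8.87 and 8.90 in knockout. Knockouts 2, 3 and 4 lay above all wild types and knockout 1 did not. Its difference was 0.18 (95% interval -0.04 to 0.40, limma adjusted p = 0.355). The synthase gene Chsy1 differed by 0.23, its partner Chpf by 0.09, and the N-acetylgalactosaminyltransferase genes Csgalnact1 and Csgalnact2, which start the chondroitin chain, by 0.16 and 0.02 (limma adjusted p = 0.39, 0.594, 0.682 and 0.951). Chsy3 had the widest spread of all members, 7.32 ± 0.36 and 7.06 ± 0.45. The level of Chsy3 reached 7.83 in wild type 2 and 6.66 in knockout 3, and its difference of -0.26 did not pass (95% interval -0.79 to 0.27, limma adjusted p = 0.595). The other Chsy3 probe set, dimmer and present on all 8 arrays, read the other way, at 0.18 (limma adjusted p = 0.379).

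Among the chondroitin and dermatan sulfotransferases, Ust had the smallest p of all members. Ust places sulfate on the uronic acid, and read 8.60, 8.52, 8.61 and 8.53 in wild type and 8.70, 8.78, 8.94 and 8.78 in knockout. All 4 knockout arrays lay above all 4 wild types. The means were 8.56 ± 0.05 and 8.80 ± 0.10, 1.18-fold higher (log2 difference 0.24, 95% interval 0.08 to 0.39, limma adjusted p = 0.16). This probe set was called present on 3 wild-type and 2 knockout arrays, and the second Ust probe set, present on 7 arrays, read -0.01 (limma adjusted p = 0.952). With the mean of both probe sets the difference was 0.11.

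The genes that place the sulfate groups most abundant in cartilage chondroitin did not pass. Chst11, the main chondroitin 4-O-sulfotransferase of cartilage, read 11.72, 12.32, 11.81 and 11.90 in wild type and 11.82, 12.36, 11.64 and 12.11 in knockout. Here too mouse 2 was the highest of each group, and the difference was 0.05 (95% interval -0.34 to 0.43, limma adjusted p = 0.921). Chst12, which acts at the same position, differed by 0.02, and Chst13, another such gene, by 0.32, with knockout 3 at 8.07 above all other arrays (7.18 to 7.74; limma adjusted p = 0.941 and 0.261). Both were called present on 5 of 8 arrays. The 6-O-sulfotransferase gene Chst7 differed by 0.04 (limma adjusted p = 0.878). Chst3, the chondroitin 6-O-sulfotransferase gene whose loss causes a skeletal dysplasia in people, was absent on all 8 arrays at 6.24 ± 0.10 and 6.26 ± 0.10, so no fold is given. Chst15, which adds sulfate to residues that carry one already, read 0.18 higher (limma adjusted p = 0.295). On the dermatan side, the 4-O-sulfotransferase gene Chst14 differed by 0.08 and the epimerase gene Dse by -0.06 (limma adjusted p = 0.612 and 0.853).

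**Figure D3:**
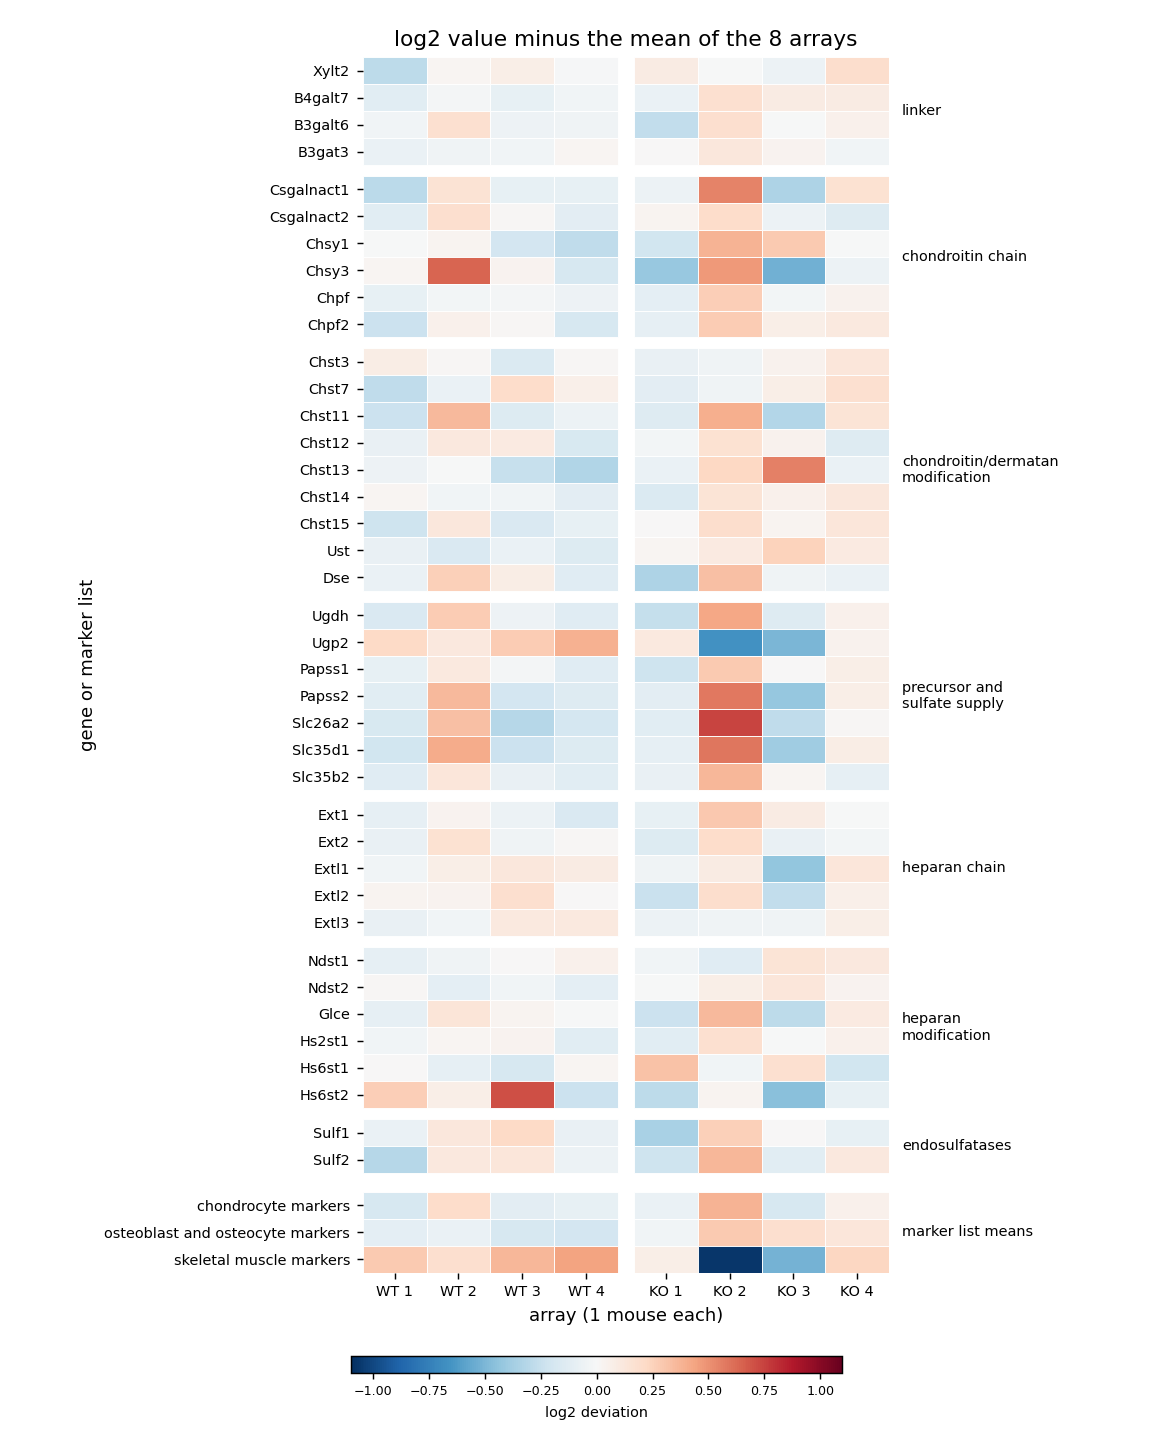
Each row is a member (or, at the foot, the mean of a marker list), each column an array with 1 mouse, and the colour is the log2 value minus the mean of the 8 arrays (red above, blue below). Wild type 2 and knockout 2 are red through most sulfate supply and chondroitin rows, as in the chondrocyte row. In these 2 mice the means of linker (0.03 and 0.12), heparan chain (0.06 and 0.15) and endosulfatase genes (0.12 and 0.31) were also above 0. For heparan sulfate modification the means were -0.005 and 0.08. Ugp2 is blue in knockouts 2 and 3, as is the muscle row.

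Of the 5 genes that extend heparan sulfate chains, 1 read higher and 4 lower in the knockout, and 0 passed. The polymerase gene Ext1 had the smallest p among the chain-extending genes, with 10.20, 10.34, 10.23 and 10.13 in wild type and 10.21, 10.59, 10.39 and 10.30 in knockout. Knockouts 2 and 3 lay above all wild types, and the others among them. The difference was 0.15 (limma adjusted p = 0.413). Its second probe set read 0.15 higher with no overlap (limma adjusted p = 0.284). The partner gene Ext2 differed by -0.03, Extl1 by -0.12, Extl2 by -0.13 and Extl3, which starts the heparan sulfate chain, by -0.05, with limma adjusted p = 0.572 to 0.904. A dim probe set of Ext2 was absent on all arrays, so its values (4.15 ± 0.03 and 3.98 ± 0.10, without overlap) give no fold. Ext1 and Ext2 act as a complex, and inherited loss of either causes multiple exostoses in people.

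Of the heparan sulfate modifying genes, Hs6st2 had the smallest p at gene level. This 6-O-sulfotransferase gene read 6.43, 6.23, 6.87 and 5.92 in wild type and 5.87, 6.19, 5.70 and 6.07 in knockout. Wild type 3 was the highest array and the groups overlapped. The difference was -0.40 (95% interval -0.83 to 0.02, limma adjusted p = 0.277), and the other 3 probe sets of Hs6st2 were absent on all arrays. Hs6st1, with the same activity, differed by 0.13, and the 2-O-sulfotransferase gene Hs2st1 by 0.05 (limma adjusted p = 0.584 and 0.768). Ndst1 and Ndst2, which replace acetyl by sulfate on glucosamine, differed by 0.05 and 0.12 (limma adjusted p = 0.798 and 0.316). A second probe set of Ndst1 read higher in all 4 knockouts (8.89 ± 0.09 and 9.09 ± 0.07, limma adjusted p = 0.185), and the other 2 besides the brightest were absent on all arrays.

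In Glce, the glucuronyl epimerase gene, the probe sets did not move alike. The brightest read 9.47, 9.71, 9.60 and 9.56 in wild type and 9.33, 9.93, 9.28 and 9.66 in knockout, a difference of -0.03 (limma adjusted p = 0.924). The dimmest read 4.74, 4.36, 4.64 and 4.70 in wild type and 5.03, 5.66, 5.17 and 5.68 in knockout. All knockout arrays lay above all wild types, and it was called present on 4 knockout arrays and 1 wild type. The log2 difference of 0.77 did not pass (limma adjusted p = 0.13, adjusted across probe sets). Without knockout 4 it was 0.67 and passed (limma adjusted p = 0.0352), in a fit in which 3579 of 45037 probe sets passed (7.95%) in place of 24. Glce is the 1 member on chromosome 9, the chromosome of Anp32a, and in the GRCm38.p6 annotation 6 annotated genes, 1 of them protein-coding, lie between them. The sources used here do not say which part of the transcript each probe set reads.

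**Figure D4:**
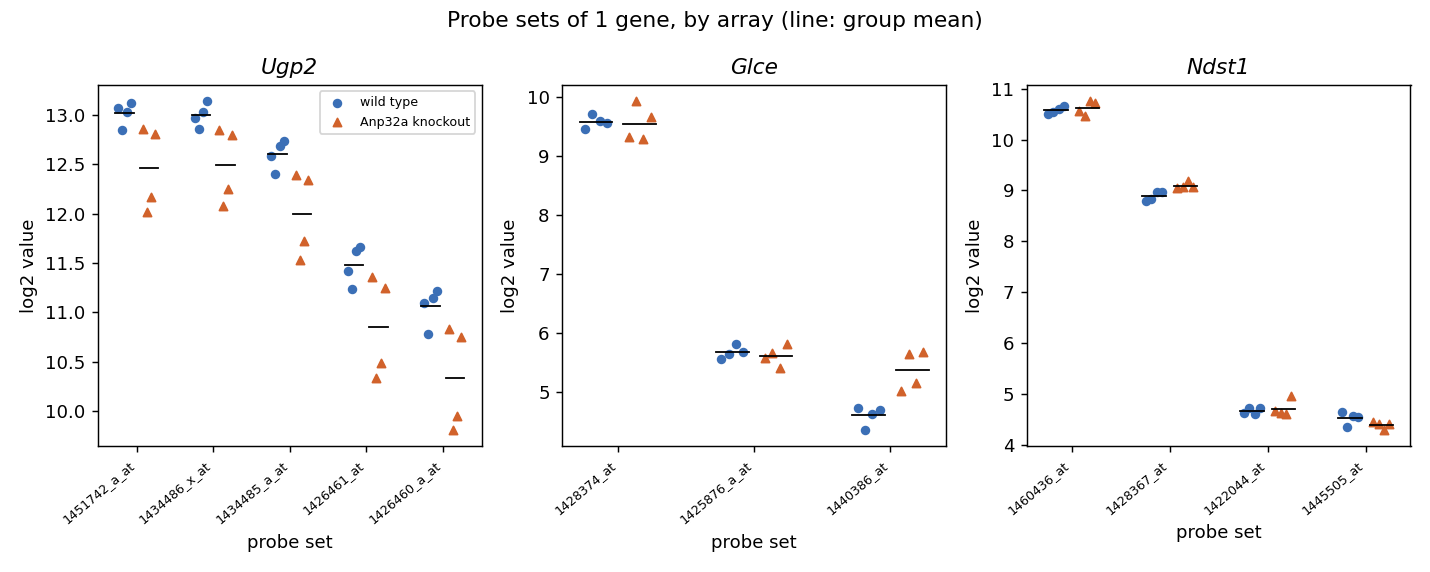
Log2 values (vertical axes) of every probe set of Ugp2, Glce and Ndst1 on the 4 wild-type (circles) and 4 knockout arrays (triangles), with a line at each group mean. All 5 Ugp2 probe sets are lower in the knockout, while in Glce the dimmest and in Ndst1 the second brightest part without overlap and the brightest do not.

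The extracellular sulfatases Sulf1 and Sulf2, which remove 6-O-sulfate from finished heparan sulfate, did not pass. Sulf1 read 10.13, 10.32, 10.42 and 10.11 in wild type and 9.84, 10.46, 10.20 and 10.10 in knockout, with overlap (log2 difference -0.09, limma adjusted p = 0.749). Sulf2 differed by 0.07 (limma adjusted p = 0.849). Its dimmest probe set read lower in all 4 knockouts (8.61 ± 0.05 and 8.47 ± 0.07, limma adjusted p = 0.287) and the remaining one read -0.04.

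Over the 80 member probe sets, 0 passed limma with Benjamini-Hochberg adjustment, beside 0.0533% of all probe sets. Unadjusted p was under 0.05 for 10 of the 80, beside 18.3%, and the groups did not overlap for 8, beside 9.42%. Of the 80, 59 were called present on all arrays and 10 absent on all. In the authors' deposited table the smallest adjusted p among these probe sets was 0.129.

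The chondroitin and heparan sulfate branches were set side by side. Of 15 chondroitin genes, 13 read higher in the knockout, with a median difference of 0.08. Of 13 heparan sulfate genes 6 read higher, with a median of -0.03. Over all genes 53.8% read higher, with a median of 0.01. The chondroitin genes that read higher include Chst3, absent on all arrays. In both branches the sign of several genes changed with 1 array left out. The mean of the chondroitin genes minus that of the heparan sulfate genes, relative to all arrays, was -0.06, 0.07, -0.14 and -0.09 in wild type and 0.0025, 0.10, 0.09 and 0.02 in knockout. The groups overlapped, since wild type 2 lay among the knockouts. The 4 linker genes, with Xylt2, absent on all arrays, among them, had a median difference of 0.09, and the 7 supply genes 0.07. No member of any branch passed, so these are descriptions of the medians.

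The other genes of glycosaminoglycan metabolism split by direction. Of 16 measured breakdown genes, most of which encode lysosomal enzymes, 15 read higher in the knockout, 0 passed limma with Benjamini-Hochberg adjustment, and 6 had an unadjusted p under 0.05 (37.5%, beside 19.4% of all genes). Their median difference was 0.19. Hexa, which encodes a lysosomal hexosaminidase subunit, read 12.67 ± 0.10 and 12.97 ± 0.17, a difference of 0.30. All knockouts lay above all wild types in Hexa (limma adjusted p = 0.172). The groups did not overlap for 3 of the 16 (18.8%, beside 10.0% of all genes). Markers of osteoclasts, cells rich in lysosomal enzymes, also read higher. The mean of 9 osteoclast markers, relative to all arrays, was -0.39 to -0.08 in wild type and 0.03 to 0.42 in knockout. Other list means were higher too: erythroid by 0.78, B cell by 0.50, osteoblast and osteocyte by 0.28, neutrophil by 0.26, chondrocyte by 0.09. Those of skeletal muscle, adipocyte, and tendon, ligament and synovium markers differed by -0.64, -0.27 and -0.24. The part of any cell type in the breakdown genes was not tested.

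Of 20 other sulfation and chain enzymes measured, 8 read higher and 12 lower, and 0 passed limma with Benjamini-Hochberg adjustment. Among them 1 had an unadjusted p under 0.05 (5%, beside 19.4% of all genes) and 1 had groups without overlap (5%, beside 10.0%). Both were Bpnt1, which clears the phosphate product left when PAPS has given up its sulfate. Bpnt1 read 9.24 ± 0.05 and 8.90 ± 0.29 (limma adjusted p = 0.201). Slc35b3, a second PAPS transporter gene, differed by 0.18, and Chst5 by 0.27 (limma adjusted p = 0.28 and 0.442). Of 12 chondroitin and dermatan core proteins 9 read higher, and Cd44, a surface receptor for hyaluronan that can carry chondroitin chains, differed by 0.29 (limma adjusted p = 0.16). Cd44 was the 1 of these 12 without overlap (8.33%, beside 10.0% of all genes). Cd74, an immune-cell gene, differed by 0.18 and Vcan, a large matrix proteoglycan gene, by -0.15 (limma adjusted p = 0.454 and 0.526). Of 14 heparan sulfate core proteins 10 read higher, with Sdc1 at 0.24, Agrn at 0.16 and Hspg2 at 0.15 (limma adjusted p = 0.245, 0.258 and 0.402). No member of these lists passed.

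Leaving out single arrays did not bring a member past the threshold. Without knockout 4, the fit in which 1786 of 20667 genes passed (8.64%), 0 of 39 members did, and the smallest adjusted p was 0.0597 for Ugp2, followed by 0.0799 for Ust and 0.127 for Chst13 (limma with Benjamini-Hochberg adjustment). Without knockout 4, 3 of the 80 member probe sets passed, 2 of Ugp2 and the dim 1 of Glce, beside 7.95% of all probe sets. With knockout 2 and 3 left out together 1 member, Ust, had an unadjusted p under 0.05 (limma adjusted p = 0.703), beside 7.02% of all genes, and 0 passed with adjustment, beside 0.00484%.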

How the data were processed

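Labelled cRNA was hybridised to Affymetrix arrays, 1 per mouse, per the labels. The authors deposited log2 values per probe set from RMA, per the submitters' processing notes, with detection calls and their own p-values and log2 fold changes, per the file headers. Own log2 differences departed from the deposited ones by at most 4.8e-08. The sources used here do not name the array design. Rows with no identifier (64) were not used, and probe sets without a symbol (6889) or with a date as symbol (62) were left unnamed. RMA makes all arrays share 1 distribution of probe intensities before these are summarised per probe set, so a general shift would not show.

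Genes and, in a second fit, probe sets were compared by limma 3.58.1 (R 4.3.3, moderated two-sided test on genotype alone). Benjamini-Hochberg adjustment ran over the whole table, at 0.05, with no filter. The members and lists were chosen with earlier results of these data known. Described in full are members whose groups did not overlap, otherwise the smallest p of a branch, and members in which 1 probe set parted the groups and another did not follow, with up to 3 genes of smallest p for each other list. Some genes that this rule takes are not reported here. Slc26a2, Papss2, Slc35d1, Chst11, Chsy3 and Chst13 were added after their values were seen. Correlations over the 8 mice used exact permutation of all pairings.

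Arrays numbered alike in both genotypes are not said to be pairs. Their deviations from the group means correlated at 0.07, 0.51, -0.34 and 0.30, so the numbers were not taken as pairs. The labels name no litters, so p-values measure the spread between these samples, and 4 arrays a group limit the precision. Alternatives were a replicate block, normalization, array weights, the variance model, a filter on present calls, the mean of probe sets, arrays left out and marker means as covariates.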

Additional observations from a re-analysis of the deposited data

Results flagged for a closer look

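Of 78 groups of 4 arrays (39 members, 2 genotypes), 5 held 1 array that lay far from the other 3 by Dixon's criterion, which chance gives in about 1 of 20 groups. Wild type 2 stood apart in Papss2 at 13.04, in Slc35d1 at 9.95 and in B3galt6 at 8.42, in each as the highest wild type. Wild type 3 stood apart in Extl2 at 9.51, with the next at 9.36. Knockout 4 stood apart in Extl3 at 9.59, with the next at 9.46. Papss2 and Slc35d1 are among the 7 members that passed by r with the chondrocyte markers, in which wild type 2 was also the highest wild type.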

How the results depend on the processing

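Of 39 members 0 passed limma with Benjamini-Hochberg adjustment in the main fit and in every alternative run. In the alternatives 1 to 6 members had an unadjusted p under 0.05. The 6 came without knockout 1, where 3794 of 20667 genes did too. The 1 came without knockout 2 and 3, where 1451 of 20667 genes did (7.02%). Over all alternatives that gene count ran from 1268 with the muscle mean as a covariate to 5409 without knockout 4. The count of all genes that passed with adjustment was 11, and became 4 with the replicate block and 1 with knockout 2 and 3 left out together. It became 1 with the muscle mean as a covariate, and 1 to 1786 with 1 array left out. Over all probe sets it was 24, and became 41 with array weights, 7 without knockout 2 and 3, and 9 to 3579 with 1 array left out; among the 80 member probe sets it was 0 to 3 with 1 array left out. The 1786, 3579 and 3 all came without knockout 4. The replicate block changed no member's call, with adjusted p = 0.152 for Ugp2 and 0.156 for Ust. With the chondrocyte mean as a covariate, the sign of the log2 difference was compared only for Papss2, Slc26a2, Slc35d1, Chst11 and Csgalnact1. With the muscle mean it was compared only for Ugp2. Over the settings compared for each member, the sign was always kept for 21 of the 39, Ugp2 and Ust among them. It changed with 1 array left out for 17 members, with ranges as follows: B3galt6 -0.0832 to 0.0669, Chst11 -0.0808 to 0.172, Chst12 -0.0362 to 0.069, Chst3 -0.0232 to 0.0566, Chst7 -0.0431 to 0.117, Csgalnact2 -0.0485 to 0.0823, Dse -0.185 to 0.0374, Ext2 -0.101 to 0.0236, Glce -0.16 to 0.0543, Papss1 -0.0148 to 0.157, Papss2 -0.129 to 0.208, Slc26a2 -0.0424 to 0.314, Slc35b2 -0.0024 to 0.162, Slc35d1 -0.0906 to 0.244, Sulf1 -0.196 to 0.0105, Sulf2 -0.0439 to 0.155, Ugdh -0.0925 to 0.141. With knockout 2 and 3 left out together it turned to -0.0786 in Chst12, -0.0453 in Csgalnact2, -0.00767 in Hs2st1, -0.04 in Papss1, -0.0414 in Slc35b2, -0.0213 in Sulf2 and -0.0799 in Ugdh. With the mean of all probe sets it turned to 0.226 in Glce and -0.0357 in Sulf2. With the chondrocyte mean as a covariate, chosen after the data were seen, it turned to -0.0775 in Chst11, -0.0916 in Papss2 and -0.0639 in Slc35d1. None of these values passed, and the cause was not tested. Probe sets absent on all arrays, as in Xylt2 and Chst3, allow no fold.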
